A study of Arabidopsis thaliana with 12 samples.

Results

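The plastid genome of Arabidopsis thaliana carries genes for photosynthesis, for a multi-subunit RNA polymerase and for its own ribosomes, and the levels of their transcripts were examined here in rosette leaves. The genes were taken as every entry of the count table whose locus identifier begins with ATCG, which gave 133 of 33604 entries. Of these, 130 had a gene name and 3 had none and no counts. Transcripts were counted in 12 libraries from the third and the fourth rosette leaf, with 3 libraries in each of 4 groups. Wild-type plants (Col) gave one group without NaCl, called Col mock below, and one kept in 100 mM NaCl, called Col salt. Line #1 of plants that overexpress the AP2/ERF transcription factor ERF34 gave OX mock and OX salt in the same way. In that line the ERF34 coding sequence was joined to GFP at its N-terminus and driven by the CsVMV promoter, and all plants had the Col background. Salt-treated leaves were detached at 16 DAE (the labels do not spell out the abbreviation) and kept for 1 day on 3 mM MES buffer with the salt. It is not stated whether mock leaves were also detached and floated for a day, so a salt difference can include detachment. The overexpressor is a single transgenic line, so line and transgene cannot be told apart.

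Plastid genes are mostly arranged in operons that are transcribed into long precursors and then cut, trimmed and edited by nuclear-encoded proteins. The polymerase whose core is encoded by rpoA, rpoB, rpoC1 and rpoC2 needs nuclear-encoded sigma factors to start at a promoter and reads mainly photosynthesis genes, while phage-type polymerases imported from the cytosol read rpoB and other housekeeping genes. Most stable plastid transcripts have no poly(A) tail, and in plastids a tail marks RNA for decay, so libraries made by poly(A) selection, as these were, hold only a part of the plastid RNA. In leaf RNA, fewer plastids or fewer green cells and less RNA per plastid cannot be told apart.

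Several neighbouring genes share sequence or are very short, and 4 stretches are shown as examples. Coordinates and letters are from the RefSeq assembly TAIR10.1. The first is the junction of atpB and atpE, the genes of the β and ε subunits of the plastid ATP synthase, at Pltd:52636-52687 on the minus strand, where capitals mark the 4 bases in which the stop of atpB and the start of atpE overlap.
atpB-atpE: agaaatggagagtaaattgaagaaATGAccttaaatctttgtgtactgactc
The second is the junction of psbD and psbC, which encode the D2 and CP43 proteins of photosystem II, at Pltd:33696-33796 on the plus strand, where capitals mark the 53 bases shared by both reading frames.
psbD-psbC: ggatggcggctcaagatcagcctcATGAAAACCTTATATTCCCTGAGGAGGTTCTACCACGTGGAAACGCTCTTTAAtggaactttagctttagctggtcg
The third and the fourth are whole reading frames on the plus strand, with the start and stop codons in capitals. They are psaI (114 bases, Pltd:59247-59360), a small photosystem I subunit, and psbT (102 bases, Pltd:74082-74183), a small photosystem II subunit. Both are shown because they had the largest differences between the genotypes in salt.
psaI: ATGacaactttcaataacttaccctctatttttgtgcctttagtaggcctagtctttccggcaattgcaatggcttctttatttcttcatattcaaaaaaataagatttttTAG
psbT: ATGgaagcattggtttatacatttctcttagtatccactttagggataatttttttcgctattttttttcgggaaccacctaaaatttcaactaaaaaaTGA

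Library totals over named genes were 10425430 to 18398594 counts, lower in all 6 overexpressor libraries (at most 12704898) than in all 6 wild-type libraries (at least 14301312). The transgene was read out as labelled: ERF34 stood at 2.96 to 16.7 counts-per-million (CPM, over library totals scaled with TMM factors) in wild-type libraries and at 768 to 1081 CPM in overexpressor libraries. Among leaf markers, RBCS1A, CAB1 and CA1 summed to 6955 to 11259 CPM, while 9 markers of root, flower and meristem summed to 0.536 to 6.96 CPM, with EXPA7, STM, CLV3 and WUS at 0 counts. Of these 9, PYK10 and PI passed the filter on low counts, and PI was called in the salt comparison of the overexpressor, with 0.0650 ± 0.113 CPM in OX mock and 1.70 ± 1.48 in OX salt (SD, n = 3).

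Plastid genes took a small part of each library, 26709 to 75918 counts. Their share of the counts on named genes was 0.493%, 0.329% and 0.380% in Col mock replicates 1 to 3, and 0.427%, 0.259% and 0.197% in Col salt. In OX mock it was 0.410%, 0.259% and 0.252%, and in OX salt 0.342%, 0.579% and 0.219%. The groups overlapped: their means were 0.401% ± 0.0842, 0.294% ± 0.119, 0.307% ± 0.0895 and 0.380% ± 0.183 (SD, n = 3). Genes of the mitochondrial genome, at 0.0653% to 0.172%, and 4 nuclear ribosomal RNA genes, at 0.0995% to 0.209%, are further RNAs that mostly lack a tail. In every group all 3 shares were highest in the same library: replicate 1 of Col mock, Col salt and OX mock, and replicate 2 of OX salt. These shares therefore moved together between replicates, and their part in the results below was not tested except where a value with them in the model is given.

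**Figure D1:**
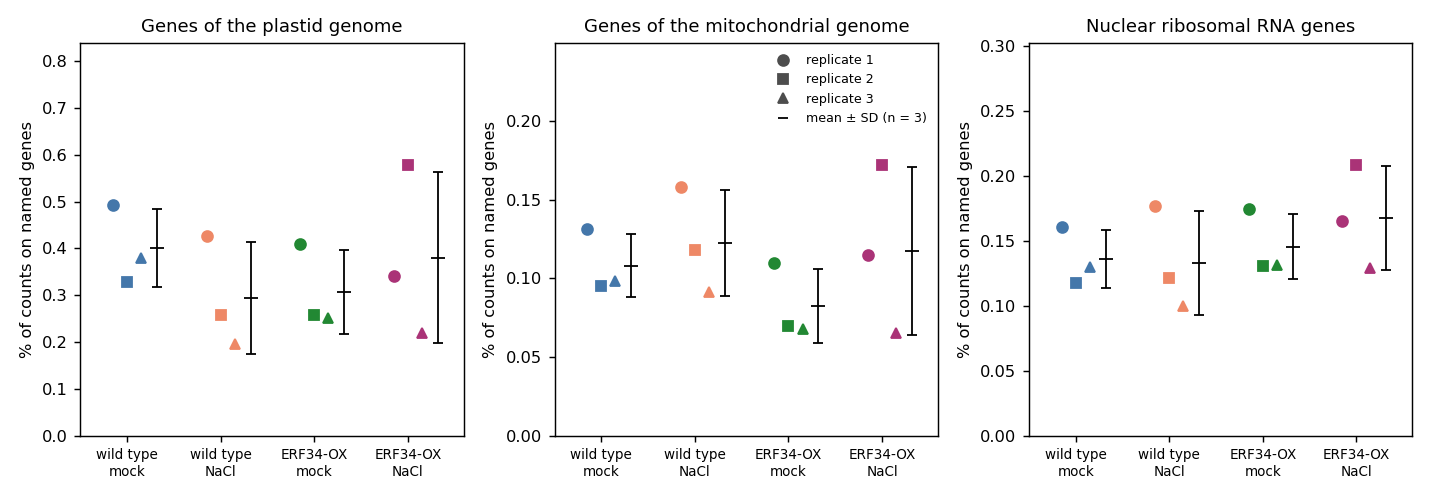
Percent of the counts on named genes that fell on plastid genes, mitochondrial genes and 4 nuclear ribosomal RNA genes, for each of the 12 libraries (one marker shape per replicate number) with group mean ± SD (n = 3). The same library was highest in all 3 panels within each group, and plastid shares ranged from 0.197% to 0.579% with overlapping groups.

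Counts were concentrated on a few photosynthesis genes. Per length, the order of mean levels over the 12 libraries began with psbA, the D1 reaction-centre protein of photosystem II (909 CPM per kilobase), and rbcL, the large subunit of Rubisco (432), followed by atpE (222), psbC (157), atpB (140) and psaJ (137). As a share of all plastid counts, psbA took 21.8% to 32.9% and rbcL 15.6% to 21.4% of a library. Both varied widely between replicates. The psbA level was 1357, 780 and 857 CPM in Col mock, 1278, 741 and 522 in Col salt, 1252, 690 and 635 in OX mock, and 1021, 1902 and 555 in OX salt. The rbcL level was 784, 645 and 690 CPM in Col mock, 691, 564 and 384 in Col salt, 653, 498 and 475 in OX mock, and 584, 1073 and 422 in OX salt. For both genes the groups overlapped, and the highest value of all belonged to replicate 2 of OX salt.

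Of the 133 entries, 88 passed the filter on low counts and were tested: 15 of 15 psb genes, 10 of 12 ndh, 9 of 15 rps, 7 of 11 rpl, all 6 atp, all 6 pet, all 5 psa and all 4 rpo genes, 4 of 8 ribosomal RNA entries, 13 of 36 tRNA entries and 9 of 12 others. The 45 not tested were 23 tRNA, 4 ribosomal RNA, 3 unnamed and 15 other entries. Genes present in identical copies of the inverted repeat carried almost nothing: both entries of ycf2 together had 5 counts over the 12 libraries, ndhB 4, rpl2 23, rpl23 2 and rps7 10. A read that fits both copies may not have been assigned, so the levels of these genes are uncertain. The copies of the 16S and 23S ribosomal RNA genes did carry counts, and how reads were split between them is not given in the sources used here.

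In wild-type leaves, 19 plastid genes of 88 were lower in salt than in mock, and none was called higher (edgeR's quasi-likelihood test, Benjamini-Hochberg adjusted p under 0.05 over 18886 genes). Over all genes tested, 21.1% were called lower and 20.3% higher. The 19 plastid genes, 21.6% of those tested, are therefore close to the background for falling, and the members differ from it in having no call in the upward direction. The log2 fold change was negative for 80 of the 88, with a median of -0.63 beside -0.01 for all genes. That median was -0.15 with the plastid total as library size, -0.37 without Col salt replicate 3 and -1.07 without Col salt replicate 1. A further count is of overlap: 22 plastid genes (background 26.7%) had every salt library below every mock library. The genes that fell included subunits of the NDH complex, which returns electrons from photosystem I to the plastoquinone pool, of ATP synthase, of ribosomes and of the plastid polymerase, together with psaJ, psbM, petA and ycf1, while the most abundant photosystem genes and rbcL did not pass the test.

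The pair atpB (ATCG00480, Pltd:52660-54156) and atpE (ATCG00470, Pltd:52265-52663) had the smallest adjusted p-values of the 19. The atpB level was 392, 353 and 392 CPM in Col mock and 179, 174 and 143 in Col salt, a log2 fold change of -1.20 (SE 0.187, edgeR adjusted p = 0.000663). The atpE level was 161, 167 and 164 CPM in Col mock and 76.1, 76.0 and 57.7 in Col salt, a log2 fold change of -1.23 (SE 0.225, edgeR adjusted p = 0.00168). Every salt library lay far below every mock library for both genes. In the overexpressor both stood near the Col salt level without salt, with atpB at 165, 195 and 154 CPM in mock and 106, 161 and 102 in salt. The same held for atpE, at 70.4, 89.2 and 63.6 CPM in OX mock and 41.5, 63.4 and 32.9 in OX salt. The other 4 atp genes, the atpI, atpH, atpF and atpA genes of the separate atpA operon, were not called in any comparison of the reported fit. With the ribosomal RNA covariate all 4 were called lower in Col salt (edgeR adjusted p = 0.00212, 0.0349, 0.00250 and 0.00966 in that order), and without Col salt replicate 1 atpI and atpF were (0.0140 and 0.0255). In the comparison of genotypes in salt, atpF was called higher with the replicate block (0.0387), and atpF and atpI without Col salt replicate 1 (0.0329 and 0.0349).

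**Figure D2:**
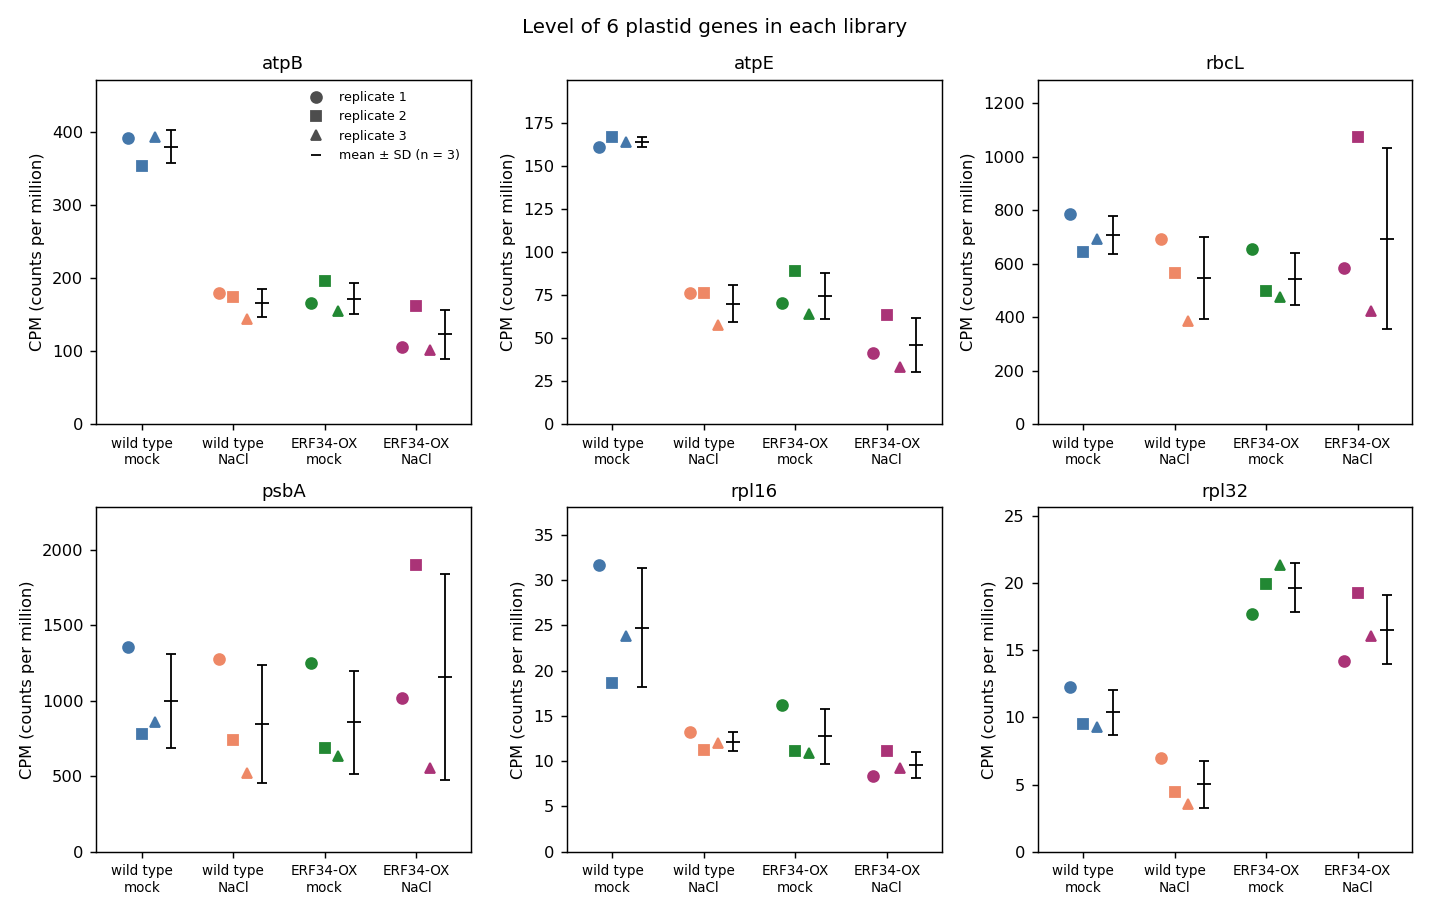
Level (CPM, linear axis from 0) of atpB, atpE, rbcL, psbA, rpl16 and rpl32 in each library of the 4 groups, with mean ± SD (n = 3). In Col mock atpB stood at 353 to 392 CPM, above all 9 other libraries, which ranged from 102 to 195, while psbA and rbcL overlapped in all groups.

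Setting atpB against its neighbour rbcL, read in the opposite direction from 801 bases away, gives a comparison within a library. The total of plastid counts cancels in it. The ratio of atpB to rbcL counts was 0.4995, 0.547 and 0.568 in Col mock, 0.259, 0.308 and 0.373 in Col salt, 0.253, 0.391 and 0.324 in OX mock, and 0.181, 0.1504 and 0.241 in OX salt. All 3 Col mock values lay above the other 9, and all 3 OX salt values lay below the other 9. Within each group, the library with the highest plastid share had the lowest ratio. These were replicate 1 of Col mock, Col salt and OX mock, and replicate 2 of OX salt. The ratio thus still varied with that share, and why was not tested. Group means were 0.538 ± 0.0353, 0.313 ± 0.0571, 0.323 ± 0.0689 and 0.191 ± 0.0459 (SD, n = 3). Within the operon the ratio of atpE to atpB counts moved less: 0.411, 0.472 and 0.417 in Col mock, 0.425, 0.438 and 0.403 in Col salt, 0.426, 0.457 and 0.413 in OX mock, and 0.392, 0.393 and 0.324 in OX salt. The ratios were chosen after the levels of both genes were known and carry no test. With library size taken as the plastid total, atpB still had a log2 fold change of -0.64 in Col salt (edgeR adjusted p = 0.382), against 0.13 for rbcL and 0.24 for psbA, and no plastid gene was called.

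**Figure D3:**
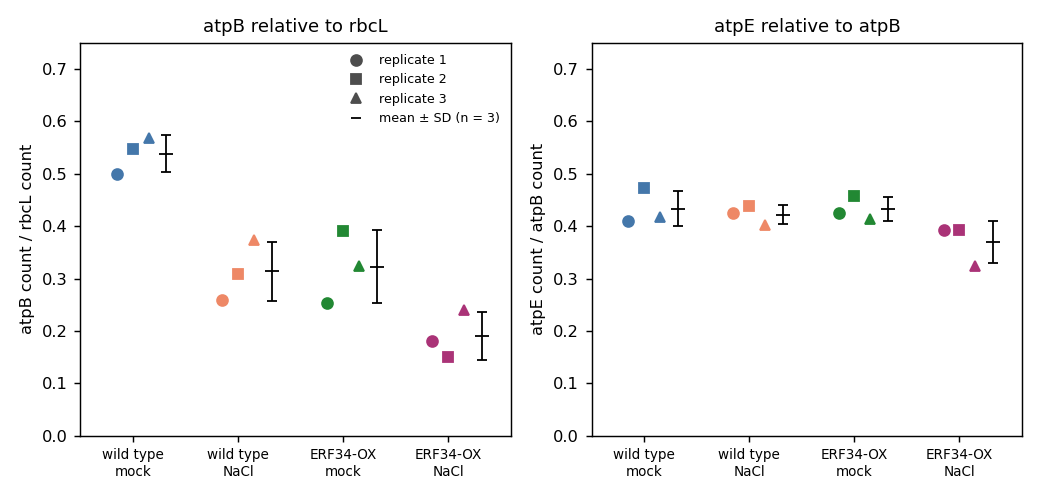
Ratio of atpB to rbcL counts (left) and of atpE to atpB counts (right) in each library, with group mean ± SD (n = 3). The atpB to rbcL ratio was 0.4995 to 0.568 in Col mock and 0.1504 to 0.241 in OX salt, with both remaining groups between them, whereas atpE to atpB lay between 0.324 and 0.472 in all libraries.

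Of the 10 ndh genes tested, 5 fell in Col salt, where 21.1% of all genes were called lower: ndhE, ndhF, ndhH, ndhI and ndhK. The largest fall of any plastid gene was that of ndhE, a membrane subunit, at 3.37, 1.87 and 2.17 CPM in Col mock and 1.71, 0.529 and 0.392 in Col salt (log2 fold change -1.52, SE 0.528, edgeR adjusted p = 0.0396). The membrane subunit gene ndhF stood at 6.21, 3.61 and 3.22 CPM in mock and 2.52, 1.12 and 1.12 in salt (log2 fold change -1.46, SE 0.425, edgeR adjusted p = 0.0186). Salt libraries lay below all mock libraries for both genes, although replicate 1 was the highest of its group each time. The genes ndhI and ndhH encode subunits of the stromal arm. The ndhI level was 4.56, 2.64 and 2.54 CPM in mock and 1.98, 1.18 and 0.840 in salt (log2 fold change -1.29, edgeR adjusted p = 0.0159). The ndhH level was 7.13, 3.74 and 3.96 CPM in mock and 3.55, 1.76 and 0.896 in salt (log2 fold change -1.27, edgeR adjusted p = 0.0390). Both again had groups that did not overlap, but ndhH by a narrow margin. The ndhK gene, for another subunit of that arm, fell from 26.1, 22.7 and 19.0 CPM to 15.6, 12.0 and 9.52 (log2 fold change -0.87, edgeR adjusted p = 0.0127). Its neighbour ndhJ went from 17.7, 13.0 and 16.5 CPM to 12.6, 9.94 and 8.01 and did not pass the test (log2 fold change -0.63, edgeR adjusted p = 0.0504; 0.0318 with the replicate block). By operon, 3 of 7 tested genes of the ndhH operon and 1 of 3 of the ndhC operon were called lower, beside the same 21.1%.

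In the long ribosomal protein operon, which also holds rpoA, the genes that fell in Col salt included rpl16, rpl14, rps19, rps3 and rpoA. The rpl16 gene, for a large-subunit protein and split by an intron, stood at 31.7, 18.7 and 23.8 CPM in Col mock and 13.2, 11.2 and 12.0 in Col salt (log2 fold change -1.02, SE 0.215, edgeR adjusted p = 0.00350). The small-subunit gene rps19 stood at 3.04, 2.13 and 2.41 CPM in mock and 1.296, 1.06 and 1.12 in salt (log2 fold change -1.12, SE 0.281, edgeR adjusted p = 0.00899). For both genes the groups were well apart. For rps3, also of the small subunit, levels of 16.2, 6.57 and 9.72 CPM in mock and 6.89, 2.47 and 2.80 in salt overlapped between replicate 1 of salt and replicate 2 of mock (log2 fold change -1.42, edgeR adjusted p = 0.0258). Outside that operon rpl32, a large-subunit gene, fell from 12.3, 9.53 and 9.29 CPM to 6.96, 4.47 and 3.59 (log2 fold change -1.06, SE 0.230, edgeR adjusted p = 0.00439). The rps14 gene lies in the psaA operon and was not called, at 43.6, 29.3 and 35.3 CPM in mock and 32.5, 20.3 and 16.6 in salt (log2 fold change -0.64, edgeR adjusted p = 0.175).

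Among the polymerase genes, rpoB and rpoA were called lower and rpoC1 and rpoC2 were not. The rpoB level was 36.6, 20.2 and 29.3 CPM in Col mock and 23.0, 9.65 and 11.3 in Col salt, with overlapping groups (log2 fold change -0.97, SE 0.330, edgeR adjusted p = 0.0360). For rpoC1, read from the same operon, the values were 20.0, 10.6 and 15.8 CPM in mock and 18.1, 8.41 and 7.39 in salt (log2 fold change -0.46, edgeR adjusted p = 0.403). In OX mock and salt rpoB stood at 31.3, 18.9 and 25.6 and at 19.3, 23.0 and 18.7 CPM, and rpoC1 at 23.7, 10.3 and 11.7 and at 14.3, 17.0 and 9.84 CPM. Neither was called in the overexpressor. Of 9 genes listed as transcribed mainly by the plastid polymerase 1 fell in Col salt (petA, 11.1%). Of 4 listed as transcribed mainly by the nuclear-encoded polymerases 1 fell (rpoB, 25%), beside 21.1% of all genes. With 1 call in each, the counts set neither list apart from that background. The median log2 fold changes were -0.44 and -0.63.

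Photosystem and cytochrome b6f genes gave 3 further calls in Col salt. The small photosystem I subunit gene psaJ stood at 20.6, 19.6 and 17.1 CPM in mock and 15.9, 7.65 and 6.89 in salt (log2 fold change -0.92, edgeR adjusted p = 0.0254). The small photosystem II subunit gene psbM (log2 fold change -1.12) and petA, the cytochrome f gene (log2 fold change -0.82), were also called lower. By contrast psaA and psaB, the photosystem I reaction centre, were not called. The psaA level was 272, 189 and 231 CPM in mock and 241, 139 and 118 in salt (log2 fold change -0.47, SE 0.390, edgeR adjusted p = 0.356). The psaB level was 266, 182 and 226 CPM in mock and 230, 123 and 111 in salt (log2 fold change -0.54, SE 0.392, edgeR adjusted p = 0.293). For both, replicate 1 of salt exceeded 2 of the 3 mock libraries, so the groups overlapped. The same held for psbC, at 343, 212 and 246 CPM in mock and 279, 173 and 160 in salt (log2 fold change -0.39, edgeR adjusted p = 0.477), and for psbA (log2 fold change -0.24, edgeR adjusted p = 0.713) and rbcL (log2 fold change -0.37, SE 0.317, edgeR adjusted p = 0.374). For petB, cytochrome b6, levels were 57.0, 35.1 and 42.5 CPM in mock and 54.3, 29.0 and 21.8 in salt, and for petD, subunit IV, 39.4, 26.0 and 30.5 in mock and 35.5, 19.7 and 14.8 in salt. Neither passed the test, with log2 fold changes of -0.36 and -0.46.

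Among the remaining genes ycf1 (ATCG01130) was called, whose product is a protein of the inner envelope membrane. Its level was 13.3, 5.60 and 6.38 CPM in Col mock and 4.98, 2.41 and 1.79 in Col salt (log2 fold change -1.47, SE 0.448, edgeR adjusted p = 0.0231), so the groups did not overlap. A second, partial ycf1 entry was at 0 counts in 9 of the 12 libraries and was not tested. Other housekeeping genes did not pass in the reported fit: clpP, a protease subunit, stood at 17.5, 14.6 and 16.3 CPM in mock and 15.1, 9.94 and 9.47 in salt (log2 fold change -0.49, edgeR adjusted p = 0.0803). For accD, a subunit of acetyl-CoA carboxylase, levels were 6.27, 5.02 and 4.77 CPM in mock and 4.57, 2.65 and 2.30 in salt (log2 fold change -0.76, edgeR adjusted p = 0.0995). With the replicate block, which pairs these groups, both were called lower (edgeR adjusted p = 0.0483 and 0.0465). None of the 4 ribosomal RNA and 13 tRNA entries was called, but the block called trnL (ATCG00400, adjusted p = 0.0175) and trnG (ATCG00100, 0.0301) lower. The 2 tRNA entries with the most counts were trnL (ATCG00400), for a leucine tRNA, at 12.1, 12.7 and 9.72 CPM in mock and 9.82, 8.17 and 4.54 in salt, and trnS (ATCG00290), for a serine tRNA, at 8.85, 4.83 and 8.23 in mock and 7.23, 3.00 and 2.80 in salt.

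The summed leaf markers were also lower in Col salt, at 6955 to 8698 CPM beside 10617 to 10941 in Col mock, with CA1 called (log2 fold change -1.42) and RBCS1A and CAB1 not, and their part in the result was not tested. How many genes were called lower in Col salt rested on single libraries. Without Col salt replicate 1, the replicate with the highest organelle and nuclear ribosomal RNA shares, 40 plastid genes were called lower. Without Col mock replicate 1, or salt replicate 2 or 3, the number was 6, 6 and 5. With replicate number as a block 32 were called lower. With the nuclear ribosomal RNA share as a covariate, an alternative added after the data were seen, it was 52, which included all 19. Over all genes, calls in either direction went from 7814 to 6873 without Col salt replicate 1. They went to 5921, 6398 and 6488 without Col mock replicate 1, or salt replicate 2 or 3. The calls of atpB, atpE, rpl16, rps19 and rpl32 remained in each of the 20 alternatives but the one with the plastid total as library size, in which none was called. That alternative scales every gene, nuclear genes included, by the plastid total, and calls over all genes went from 7814 to 3324 in it. The calls of ycf1, ndhF and ndhI were lost without Col mock replicate 1 or without Col salt replicate 2 or 3, with edgeR adjusted p of up to 0.106, 0.0788 and 0.0707, and those of ndhE and ndhH were lost in 6 of the 12 such fits each, with up to 0.132 and 0.156. The call of ndhK was lost without Col salt replicate 3 (0.0501).

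**Figure D4:**
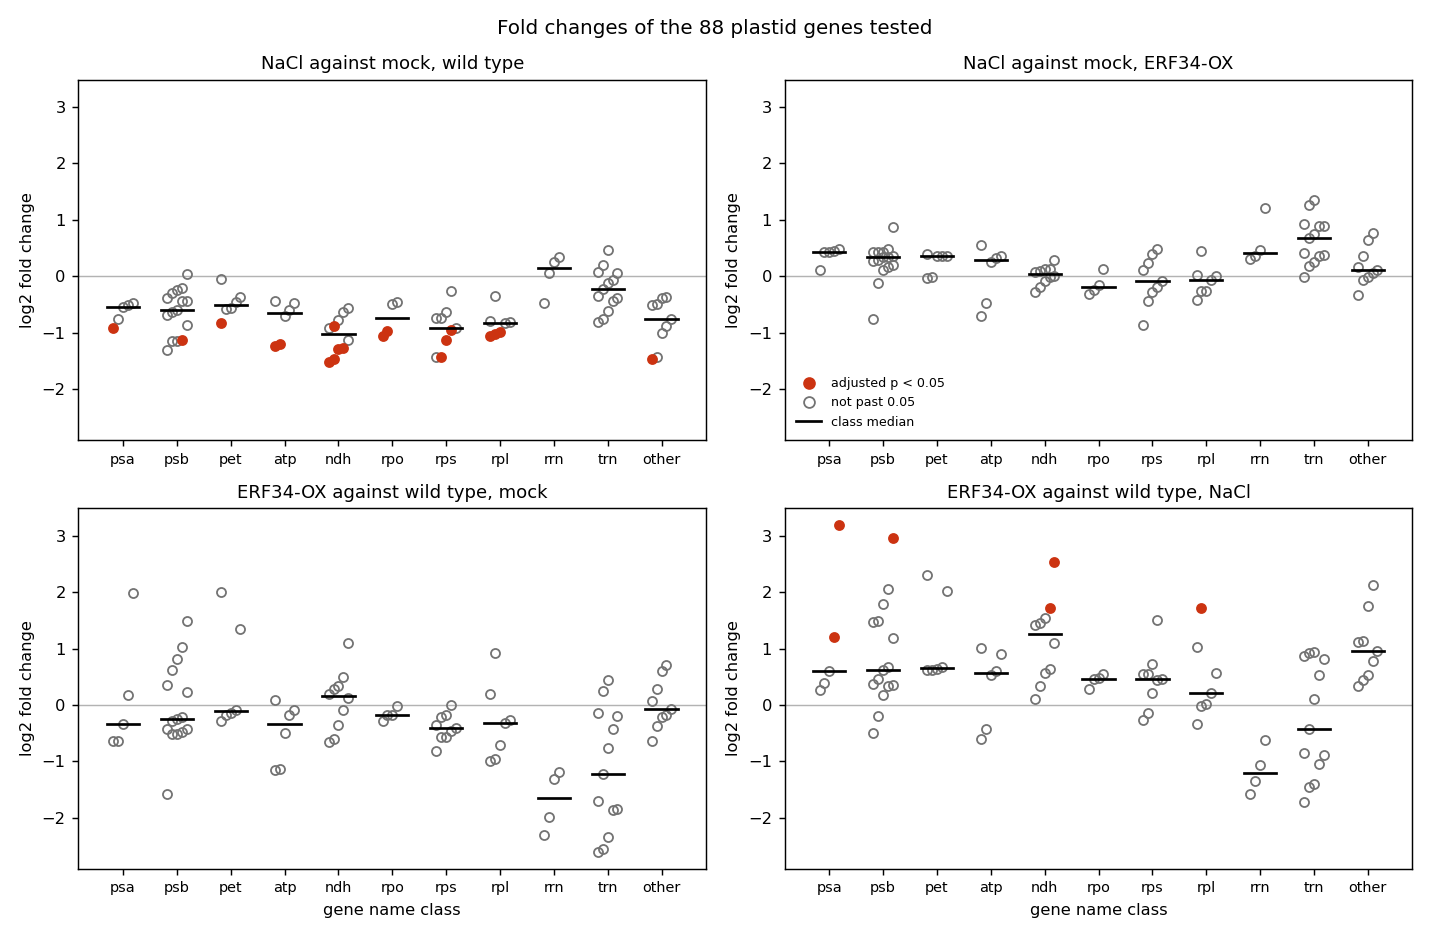
Log2 fold change of the 88 plastid genes tested, by name class, for salt against mock in each genotype (top) and the overexpressor against wild type in each treatment (bottom); filled points passed an adjusted p of 0.05, and bars are class medians. In Col salt 19 filled points lie below 0, mostly ndh, rpl, rps and atp genes, and in the comparison of genotypes in salt 6 lie above 0.

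In the overexpressor, no plastid gene was called between salt and mock by edgeR, where 18.3% of all genes were. Unadjusted p was under 0.05 for 4 of the 88 and for 6307 of all 18886 genes tested. DESeq2 called 1, atpE (log2 fold change -0.70, DESeq2 adjusted p = 0.0240), beside 4374 of all genes. The log2 fold change was positive for 61 of the 88, with a median of 0.25, which turned to -0.03 with the plastid total as library size, to -0.09 with the ribosomal RNA covariate and to -0.13 without OX salt replicate 2. The genes closest to a call were atpE (log2 fold change -0.70, SE 0.225, edgeR adjusted p = 0.0542), rps19 (-0.86, adjusted p = 0.0726) and atpB (-0.48, SE 0.186, adjusted p = 0.0965). For atpE and rps19 every salt library lay below every mock library, with rps19 at 1.61, 1.95 and 2.13 CPM in mock and 0.672, 1.496 and 0.984 in salt. The replicate block gave 3 calls lower, atpE (edgeR adjusted p = 0.0114), atpB (0.0462) and psbM (0.0265), and 1 higher, trnV (log2 fold change 0.97, adjusted p = 0.0278). Without OX salt replicate 2, which had the highest plastid share of all libraries, atpE, atpB and rps19 were called lower, at edgeR adjusted p of 0.0147, 0.0212 and 0.0370.

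All 5 psa genes and 13 of 15 psb genes had positive log2 fold changes in OX salt, without a call. The psaA level was 208, 122 and 112 CPM in OX mock and 155, 318 and 124 in salt, and that of psaB 194, 125 and 114 in mock and 153, 328 and 126 in salt. The psbC level was 273, 154 and 144 CPM in mock and 175, 386 and 132 in salt. In all 3 genes replicate 2 of salt was the only salt library above every mock library. For petB the levels were 55.3, 36.9 and 34.9 CPM in mock and 54.1, 78.1 and 30.2 in salt, and for petD 39.1, 22.7 and 22.9 in mock and 34.7, 54.1 and 20.3 in salt, with the same replicate on top. The ndh genes were not called either: ndhK was at 15.0, 14.6 and 13.3 CPM in OX mock and 15.2, 20.7 and 11.0 in salt, and ndhJ at 10.9, 10.4 and 9.84 in mock and 10.2, 14.9 and 7.87 in salt. Whether this absence of a call differed from wild type is the question of the interaction below, which called no plastid gene and so does not settle it.

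Between the genotypes without salt, no plastid gene was called by edgeR, where 0.101% of all genes were. Unadjusted p was under 0.05 for 26 of the 88 and for 1386 of all 18886 genes tested. DESeq2 called 6, beside 200 of all genes: atpB, atpE, rpl16 and a copy of rrn23S lower, and psaI and rpl32 higher. The smallest adjusted p-values were again those of atpB and atpE, each with every overexpressor library below every wild-type library (log2 fold change -1.14 for both, SE 0.187 and 0.225, edgeR adjusted p = 0.0672 and 0.114). With the replicate block, both were called lower in the overexpressor (edgeR adjusted p = 0.0413 and 0.0412). Without OX salt replicate 2, which changes the estimate of spread but no mock library, atpB was called as well (adjusted p = 0.0278). For rpl16 the levels of 16.2, 11.1 and 10.9 CPM in OX mock lay below all 3 of Col mock (log2 fold change -0.95, edgeR adjusted p = 0.183).

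In the mock comparison the log2 fold changes of genes for structural RNAs were mostly negative. All 4 tested ribosomal RNA entries had every OX mock library below every Col mock library, against 7.46% of all genes tested, with a class median log2 fold change of -1.64, and none was called by edgeR. The copy of rrn23S with more counts (ATCG01180) stood at 78.4, 27.6 and 69.7 CPM in Col mock, 77.8, 24.6 and 23.8 in Col salt, 13.9, 11.9 and 9.61 in OX mock, and 11.7, 60.1 and 10.3 in OX salt. The other copy (ATCG00950) stood at 45.3, 26.1 and 52.7 CPM, 86.6, 22.2 and 20.6, 10.9, 10.7 and 9.84, and 12.9, 22.0 and 8.53 in the same order. Both copies were lower in every OX mock library, and Col salt replicate 1 and OX salt replicate 2 stood out within their groups. Of 13 tRNA entries 8 had the same complete separation, and the class median was -1.22, but 4 of the 13 had passed the filter through wild-type libraries alone. As a share of plastid counts, ribosomal RNA made up 3.07% ± 0.764 in Col mock, 3.73% ± 1.39 in Col salt, 1.15% ± 0.194 in OX mock and 1.43% ± 0.327 in OX salt (SD, n = 3), lower in all 6 overexpressor libraries than in all 6 of wild type. Over all 88 genes the median was -0.25, and it was 0.18 with the plastid total as library size.

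In salt, 6 plastid genes were higher in the overexpressor than in wild type and none was lower. That is 6.82% of the 88, beside 2.07% of all genes called higher and 2.32% called lower. Unadjusted p was under 0.05 for 34 of the 88 and for 4202 of all 18886 genes tested. For 17 of the 88 (background 13.5%) every overexpressor library lay above every wild-type library. The 6 were psaI, psaJ, psbT, ndhE, ndhI and rpl32, that is 3 small photosystem subunits, 2 NDH subunits and 1 ribosomal protein. None of the 6 reading frames is longer than 519 bases. Of the 88 tested genes, 4 passed the filter on low counts through overexpressor libraries alone: psaI, petL, petG and rps18. At least psaI, petL and petG are among the 17, and psaI is among the 6. Neither share is therefore fully comparable with its background.

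The largest difference was in psaI (ATCG00510), at 0.614, 0.470 and 0.224 CPM in Col salt and 2.91, 6.51 and 2.54 in OX salt, a log2 fold change of 3.18 (SE 0.474, edgeR adjusted p = 0.0131). The counts behind these values were 9, 8 and 4 in wild type and 39, 74 and 31 in the overexpressor, whose libraries held fewer counts in total. The filter asks for 0.741 CPM in 3 libraries, which psaI reached in 1 wild-type and 6 overexpressor libraries, so it passed through overexpressor libraries alone. The other 5 called genes reached it in at least 4 wild-type libraries, and with no filter on low counts the same 6 were called. The mock libraries were ordered the same way, at 1.06, 0.515 and 0.619 CPM in wild type and 3.37, 2.34 and 2.99 in the overexpressor (log2 fold change 1.99, edgeR adjusted p = 0.183). All 6 overexpressor libraries therefore exceeded all 6 wild-type libraries for psaI. The psbT level (ATCG00690) was 1.77, 0.412 and 0.392 CPM in Col salt and 6.35, 9.59 and 3.77 in OX salt, a log2 fold change of 2.96 (SE 0.609, edgeR adjusted p = 0.0291). In mock it was 3.24, 1.29 and 1.73 CPM in wild type and 8.19, 3.999 and 5.36 in the overexpressor, again without overlap. Because psaI, ycf4, cemA and petA are read from 1 operon, their values in salt can be set side by side: the log2 fold change was 1.14 for ycf4, a photosystem I assembly factor (edgeR adjusted p = 0.115), 2.13 for cemA, an envelope membrane protein (adjusted p = 0.0512) and 0.67 for petA, the last gene (adjusted p = 0.208). The reported fit called psaI alone of the 4, while cemA was called higher by DESeq2 (adjusted p = 0.00255), limma (0.0291), the replicate block (0.0182) and the plastid total (0.0118), and ycf4 by DESeq2 (0.0498).

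The rpl32 gene (ATCG01020, Pltd:113449-113607) gave the smallest adjusted p. It stood at 6.96, 4.47 and 3.59 CPM in Col salt and 14.2, 19.3 and 16.1 in OX salt (log2 fold change 1.73, SE 0.232, edgeR adjusted p = 0.00879). In OX mock it was 17.7, 19.9 and 21.3 CPM, above the 12.3, 9.53 and 9.29 of Col mock, and this difference was not called by edgeR (log2 fold change 0.92, adjusted p = 0.223). All 6 overexpressor libraries lay above all 6 of wild type. It was called in salt in 18 of 20 alternatives and in all 12 that left out a library; fitting the 2 salt groups alone and scaling by the plastid total ended the call (adjusted p = 0.0603 and 0.0874). The ndhE level was 4.41, 7.57 and 3.03 CPM in OX salt and 6.12, 3.999 and 5.75 in OX mock (salt comparison of genotypes: log2 fold change 2.54, SE 0.523, edgeR adjusted p = 0.0290). The ndhI level was 3.88, 4.93 and 4.27 CPM in OX salt and 4.75, 2.44 and 3.39 in OX mock (log2 fold change 1.72, SE 0.365, edgeR adjusted p = 0.0311). The psaJ level was 19.9, 30.3 and 20.1 CPM in OX salt and 21.6, 22.1 and 20.9 in OX mock (log2 fold change 1.21, SE 0.288, edgeR adjusted p = 0.0427). For these 3 genes the difference in salt went with a call for lower levels in Col salt; both comparisons share the Col salt libraries.

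The atpB operon went the other way. Its levels in salt were lower in the overexpressor and were not called in the reported fit. The log2 fold changes were -0.43 for atpB (SE 0.185, edgeR adjusted p = 0.207) and -0.61 for atpE (SE 0.224, adjusted p = 0.146). With the replicate block atpE was called lower (edgeR adjusted p = 0.0340), as it was without OX salt replicate 2 (0.0468). The ndh, psa, psb and pet classes had positive medians in this comparison (1.25, 0.60, 0.62 and 0.65) and the ribosomal RNA entries a negative one (-1.21). Among these, psaI, petL and petG passed the filter through overexpressor libraries alone, so the psa and pet medians are not fully comparable with the others. Over all 88 genes the median was 0.55, and it was 0.31 with the plastid total as library size, 0.05 with the ribosomal RNA covariate, 0.36 without Col salt replicate 3, 0.97 without Col salt replicate 1 and 0.25 without OX salt replicate 2. The plastid total kept 3 of the 6 calls, with 5 genes called higher and 1 lower, and the covariate kept 4, with 4 higher and 2 lower. These lower calls were ribosomal RNA entries. With the plastid total it was rrn23S (ATCG00950, edgeR adjusted p = 0.0308). With the covariate they were the same rrn23S copy (0.0329) and a copy of rrn16S (ATCG01210, 0.0275). Wild-type salt replicates weighed heavily here too: without replicate 1 of that group 21 plastid genes were called higher, and without replicate 2 or 3 only 1. Over all genes, calls in either direction went from 829 to 1017, 60 and 45 in these fits, in the same order. The number of plastid genes called higher was 2 without OX mock replicate 3 or OX salt replicate 3. Without OX salt replicate 2 it was 2 higher and 1 lower. Fitting only the 2 salt groups gave no plastid call, beside 13 calls over all genes. DESeq2 gave 15 higher and 2 lower, beside 1799 calls over all genes. The 2 lower were copies of rrn16S (ATCG00920, DESeq2 adjusted p = 0.0262) and rrn23S (ATCG00950, 0.0352). The call of psaI was lost without Col salt replicate 2 or 3, those of psbT, ndhE and ndhI in 5 of the 12 fits that left out a library, and that of psaJ in 11 of them.

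**Figure D5:**
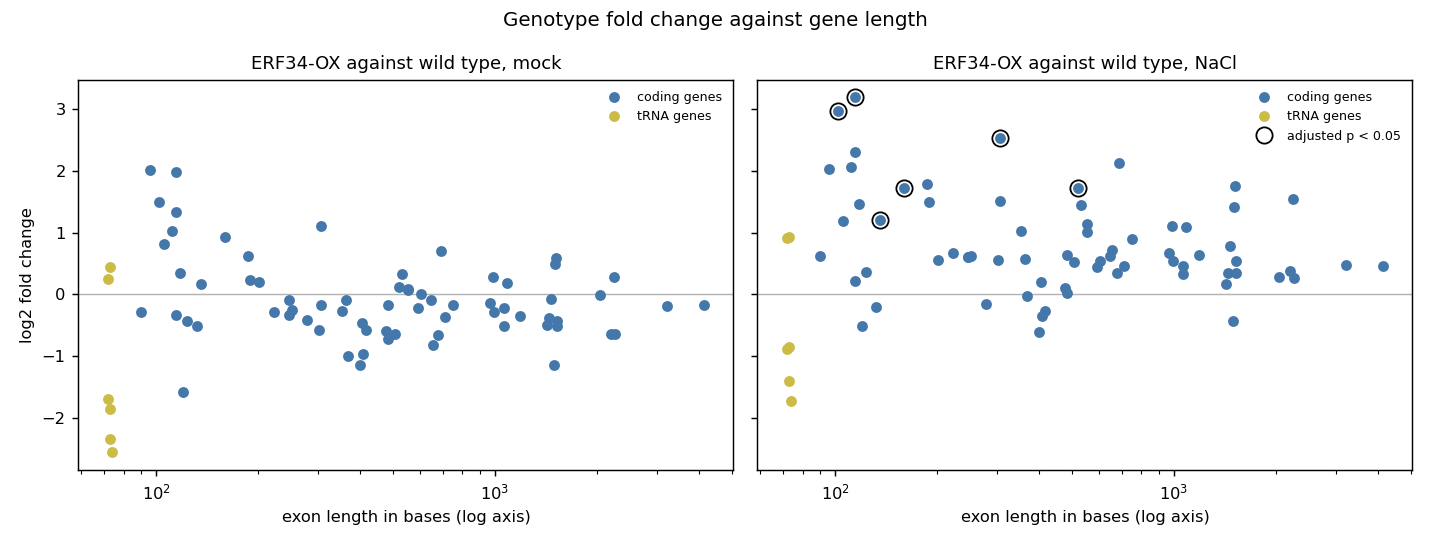
Log2 fold change between the genotypes against exon length (log axis) for the 75 tested plastid genes with a position in TAIR10.1, in mock (left) and salt (right); rings mark the 6 calls. Coding genes under 150 bases had medians of 0.35 in mock and 1.21 in salt, above those of longer coding genes, and tRNA genes had medians of -1.77 and -0.87; some members of both classes passed the filter through 1 genotype alone.

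Fold changes between the genotypes were spread along gene length. In salt, the 13 tested coding genes under 150 bases had a median log2 fold change of 1.21, with 11 positive, the 38 of 150 to under 1000 bases 0.61, and the 18 of 1000 bases or more 0.45, while 6 tRNA genes had -0.87. In mock the medians were 0.35, -0.20, -0.28 and -1.77 in the same order. In the plot of fold change against length, the spread among short genes is also the widest, from -0.50 to 3.18 in salt. Of the 13 short genes psaI, petL and petG passed the filter through overexpressor libraries alone. Of the 13 tested tRNA entries, 4 passed through wild-type libraries alone: trnE, trnfM, a trnG entry and a trnS entry. The 6 tRNA genes behind the median have unique symbols, so of these 4 only trnE and trnfM can be among them. Because of such members, these medians support no difference by length. Counts varied widely among short genes, from 4 to 74 in the salt libraries for psaI and from 123 to 344 for psaJ. The genotypes also differed in library totals, and the part of either in this pattern was not tested.

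The interaction of genotype with salt asks whether the response to salt differed between the genotypes. By edgeR no plastid gene was called, nor was any of the 18886 genes (0% background). Unadjusted p was under 0.05 for 12 of the 88 plastid genes and for 2580 of all 18886. DESeq2 also called 0 plastid genes, but called 659 of all genes, and the replicate block called 0 beside 379. The estimate was positive for 87 of the 88 plastid genes, that is, less negative or more positive with salt in the overexpressor, with a median of 0.84 beside 0.04 for all genes. These genes share their libraries and the plastid share of each, and the median was 0.12 with the plastid total as library size, 0.50 with the ribosomal RNA covariate and 0.51 without OX salt replicate 2. Among coding genes named above, the estimate was 1.59 for ndhI (SE 0.501, edgeR adjusted p = 0.194), 1.54 for rps3 (adjusted p = 0.315) and 1.47 for psbT (adjusted p = 0.478). The copy of rrn23S with more counts had an estimate of 1.69 (SE 1.00, adjusted p = 0.517). Those of atpB (0.72, SE 0.262, adjusted p = 0.264) and atpE (0.53, SE 0.316, adjusted p = 0.517) were smaller. Without Col salt replicate 1, psaJ was called (1.51, adjusted p = 0.0498).

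Nuclear genes for plastid transcription and RNA handling were read in the same libraries. In Col salt, where 21.1% of all genes were lower, 5 of 6 sigma factors fell: SIG4 (73.0 ± 12.6 to 21.3 ± 0.458 CPM, log2 fold change -1.78), SIGC (-1.32), SIGF (-1.26), SIGA (-1.12) and SIG2 (-1.03), all with n = 3 and edgeR adjusted p of at most 0.00486. The blue-light-induced SIGE had a similar mean change that did not pass the test (122 ± 53.5 to 53.6 ± 32.2 CPM, log2 fold change -1.19, adjusted p = 0.117). None of the 3 phage-type polymerase genes was called, with SCA3, a plastid enzyme, at 26.3 ± 2.19 CPM in mock and 30.6 ± 1.93 in salt. Their log2 fold changes were positive for 2 and negative for 1, AT5G15700 (-0.34, edgeR adjusted p = 0.0600). Of 12 polymerase-associated proteins 4 fell, namely PTAC2, PTAC14, PTAC7 and PTAC3. All 13 genes for plastid RNA processing and decay fell, among them the endonuclease gene RNEE/G (44.4 ± 4.47 to 13.5 ± 3.06 CPM, log2 fold change -1.72), CRB, which encodes the RNA-binding protein CSP41B (log2 fold change -1.39), and RIF10, the exonuclease polynucleotide phosphorylase (log2 fold change -1.27).

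In OX salt, where 8.55% of all genes were lower, 2 of 6 sigma factors (SIGC and SIG4), 1 of 12 polymerase-associated proteins (PTAC2) and 6 of 13 processing genes fell. SIG4 went from 60.6 ± 15.2 to 32.5 ± 9.48 CPM (SD, n = 3, log2 fold change -0.90, edgeR adjusted p = 0.0267). Between the genotypes in mock none of these lists had a call. In salt, where 2.07% of all genes were higher and 2.32% lower in the overexpressor, SIGF (75.3 ± 9.57 against 47.1 ± 5.05 CPM, log2 fold change 0.68), PTAC2 and 5 of 13 processing genes were higher in the overexpressor, and none was lower. These 5 were RIF10, RNEE/G, MRL1, which stabilises rbcL transcripts, PGR3, which acts on petL and ndh transcripts, and AT1G06190, the RNase E partner RHON1. For MRL1 the levels were 92.9 ± 5.20 against 56.5 ± 6.87 CPM (SD, n = 3, log2 fold change 0.72, edgeR adjusted p = 0.0261). No gene of these lists was called in the interaction.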

How the data were processed

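Per the labels' protocols, poly(A) RNA was made into strand-specific TruSeq libraries, 1 for each of 3 independent biological replicates per group. Reads were handled with TopHat and Cufflinks against TAIR10, per the submitters' processing notes, which list no versions. Settings of the counting step, strand included, are not given in these sources. Without them reads of overlapping and antisense transcripts cannot be told apart. The authors deposited whole-number counts per gene, not normalised, and TMM-normalised signal values, which were used only as an alternative input. The 7 entries without a gene name (0.382% to 0.897% of a library) were left out of totals and tests.

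The deposited counts were fitted with edgeR 4.0.16 (R 4.3.3) and its quasi-likelihood test. All 4 groups entered 1 model (8 residual degrees of freedom) with TMM scaling, after genes with low counts were filtered out by group (18886 of 33597 named genes kept), with Benjamini-Hochberg adjustment over all genes and calls at an adjusted p under 0.05. The common biological coefficient of variation was 0.249. Each standard error (SE) is the size of the log2 fold change divided by the root of its F value. The 5 contrasts share libraries: each genotype comparison shares its libraries with both salt comparisons, and the interaction uses all 12. The scripts were tested on simulated data. Intervals and counts of 0 cover counting error only, and 3 counts in 1 library correspond to 0.163 to 0.288 CPM.

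Alternatives were DESeq2 1.42.0, limma 3.58.1 on log2(signal + 0.5), upper-quartile factors, no filter, only the groups compared, library size as the plastid total, the replicate block, each library left out, and, added after the data were seen, the nuclear ribosomal RNA share as a covariate. Same-numbered libraries deviated together (Pearson correlation of deviations across genes) by 0.306 to 0.401 between the groups of Col salt and Col mock. The range was 0.132 to 0.273 for OX salt and OX mock and 0.270 to 0.730 for the genotypes in mock. All were over the 0.1 taken as pairing. For the genotypes in salt the values were 0.374, -0.0248 and 0.526 for replicates 1 to 3. Replicate 2 fell under 0.1, so this comparison was not taken as paired throughout.

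The members, gene lists and operons were chosen with earlier results of these data known. Named with values in every library were the 2 members of each name class with the highest mean CPM, rbcL, psbA, rpoB, accD and clpP, and per comparison up to 5 called members each way with the largest change, at least 1 CPM and no overlap of groups. Others named were chosen after their values were seen. Sequences and positions are from RefSeq (TAIR10.1), to which 83 entries were matched by a unique symbol. The result of 1 gene is not reported here.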

Additional observations from a re-analysis of the deposited data

How the results depend on the processing

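The number of plastid genes called depended on the spread allowed between replicates and on the scaling, and no called gene changed direction under any alternative. For salt in Col, 19 in the reported fit became 11 when only the groups compared were fitted, 32 with the replicate block, 0 with the plastid total as library size and 52 with the nuclear ribosomal RNA covariate, and ranged from 5 to 40 when 1 library was left out. For salt in the overexpressor, 0 became 1 with DESeq2, upper-quartile factors or limma, 4 with the replicate block and 2 with the covariate, and 0 to 3 with 1 library left out. For the genotypes in mock, 0 became 6 with DESeq2, 2 with the replicate block and 1 each with limma, the plastid total and the covariate, and 0 to 1 with 1 library left out. For the genotypes in salt, 6 became 17 with DESeq2, 0 with only the groups compared and 10 with limma, and 1 to 21 with 1 library left out. For the genotypes in salt the libraries of replicate 2 did not deviate together, and the block gave 18 (17 higher and 1 lower). For the interaction the count stayed at 0 except for 1 without Col salt replicate 1. Counts over all genes moved as well. Their interaction count of 0 became 659 with DESeq2, 379 with the block, 263 with the plastid total and 51 with limma. The replicate block ended no call. Over all genes, salt in Col went from 7814 calls to 6717 with only the groups compared and 9650 with the block. It gave 3324 with the plastid total and 7575 with the covariate. Salt in the overexpressor went from 3449 to 4374 with DESeq2 and 5327 with the block. In that order, the genotypes in mock went from 19 to 200 and 23, and those in salt from 829 to 1799 and 2344. Fitting only the groups compared does not apply to the interaction. With 1 library left out, calls over all genes were 5921 to 8443, 1519 to 3627, 3 to 18, 45 to 1017 and 0 to 73. The order is salt in Col, salt in the overexpressor, genotypes in mock, genotypes in salt and interaction. The mean plastid share ranged from 0.354% to 0.437% in Col mock, 0.228% to 0.343% in Col salt, 0.255% to 0.335% in OX mock and 0.281% to 0.461% in OX salt with 1 library left out, and without psbA it was 0.304% in Col mock. Where the cause of a change is not part of the alternative's construction, it was not tested. Genes with fewer than about 10 counts in a library, such as psaI in Col salt, are limited by depth.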
